A study of Mus musculus with 6 samples.

Results

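Serpins are a family of proteins that mostly block serine proteases, and some of them block cysteine proteases or have other tasks. Their genes were compared between mammary tumors and control mammary glands. All probe sets whose annotation was 1 gene symbol of the serpin family, clades A to I, were taken. They gave 53 probe sets for 39 genes, of 18193 genes that the arrays name by 1 symbol. Where a gene had several probe sets, its brightest by mean log2 signal was used. The tumors were 3 mammary tumors of acinar histology, taken from mice that carried *K14-cre* and 1 conditional *Apc* allele (*Apc*CKO/+). In these mice Cre, under the keratin 14 promoter, deletes part of 1 *Apc* allele. The study describes this promoter as active in progenitor cells that can form both the luminal and the myoepithelial cells of the gland. Per the study, these 3 tumors also carried a truncating mutation in the remaining *Apc* allele. The controls were 3 mammary glands of age-matched *cre*-negative mice. The study describes acinar tumors from mice of the mixed background and not from those backcrossed to C57BL/6. The sources used here give neither the ages, nor the background and *Apc* genotype of the control mice.

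An inhibitory serpin offers the protease a bait, the reactive loop. When the protease cuts the loop, the serpin snaps into a new shape and traps the enzyme for good. Many serpins are secreted, and many of those of clade A are made by the liver and rise in the acute phase of inflammation. Those of clade B stay inside cells, where they guard against misplaced proteases. The others have varied tasks: *Serpinc1* and *Serpind1* act on thrombin, *Serpinf2* on plasmin and *Serping1* on the first proteases of complement, while *Serpinh1* inhibits no protease and helps collagen to fold. In the mammary gland, *Serpinb5*, or maspin, is known as a product of myoepithelial cells.

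Each array gave 1 signal per probe set, scaled by the authors to a target of 500, and the median signal lay between 124.4 and 170.7 on the 6 arrays. Markers of fat and fibroblasts were lower in tumors, and 10 of 11 pan-epithelial genes were higher. Of 8 luminal and 8 basal genes, in each case 3 rose, 1 fell and 4 did not pass, and the genes that fell were *Foxa1* (log2 fold change −4.52) and *Oxtr* (−2.76). The summed signal of 8 adipocyte genes ran from 150100 to 205900 in control glands and from 3409 to 13920 in tumors, and that of 10 fibroblast and matrix genes from 63920 to 76620 and from 2658 to 14410. The sum of 11 pan-epithelial genes ran from 11250 to 25980 in control glands and from 75610 to 99460 in tumors, so that both tissues held the epithelium their labels imply. In these bulk samples fewer cells of a type and less RNA per cell cannot be told apart. The sum of 8 skeletal muscle genes was 170400 in control replicate 2, 63120 in control replicate 3 and 35240 in tumor replicate 1, against 501.6 to 6045 on the other arrays. The part of cell makeup in the results on serpins and their partners was not tested.

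A gene was tested where its signal reached 100 on at least 3 of the 6 arrays. This held for 18 of the 39 serpin genes, 4 of 13 in clade A, 9 of 18 in clade B, and 1 each in clades C, F, G, H and I. *Serpinb11* passed this filter through the tumors alone, so that a difference was built into its selection. The other 21 genes were dim, and 10 of the 39 lay below 50 on every array. The highest signal among the 21 was 133.9, for *Serpina12*, or vaspin, an adipokine, in tumor replicate 2, where the other 5 arrays were at 20.2 or below. *Serpinb7*, *Serpinf2* and *Serpina3i* reached 116.9, 107.8 and 102.1 on 1 array each, and the remaining 17 stayed below 100. Among these 17 were *Serpina6* and *Serpina7*, the carriers of glucocorticoids and of thyroid hormone, *Serpina5*, the protein C inhibitor, *Serpinb2*, an inhibitor of urokinase, and *Serpind1*, the heparin cofactor. Clade E was not analysed here, since the annotation used names no clade E gene alone, so the counts do not cover the whole family.

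With limma on all 12511 genes tested and an adjusted p under 0.05, 2 serpin genes rose in tumors (*Serpinb11* and *Serpini1*), 5 fell (*Serpina3n*, *Serpina1b*, *Serping1*, *Serpinb1a* and *Serpinb8*) and 11 did not pass. The share of all tested genes that passed was 16.4% for higher and 16.8% for lower, against 11.1% and 27.8% of the 18 serpin genes. The tumors were all above the control glands for 2 of the 18 and all below for 5, where the shares among all genes were 27.1% and 23.1%. With 18 genes these shares set nothing apart as particular to the family. The median log2 fold change was −0.61 over the 18 serpin genes tested, 14 of them below 0, and 0.07 over all genes tested. The labels call the 3 samples of a group biological replicates, but do not say that they came from separate mice, so the p-values measure the spread between these samples only.

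**Figure D1:**
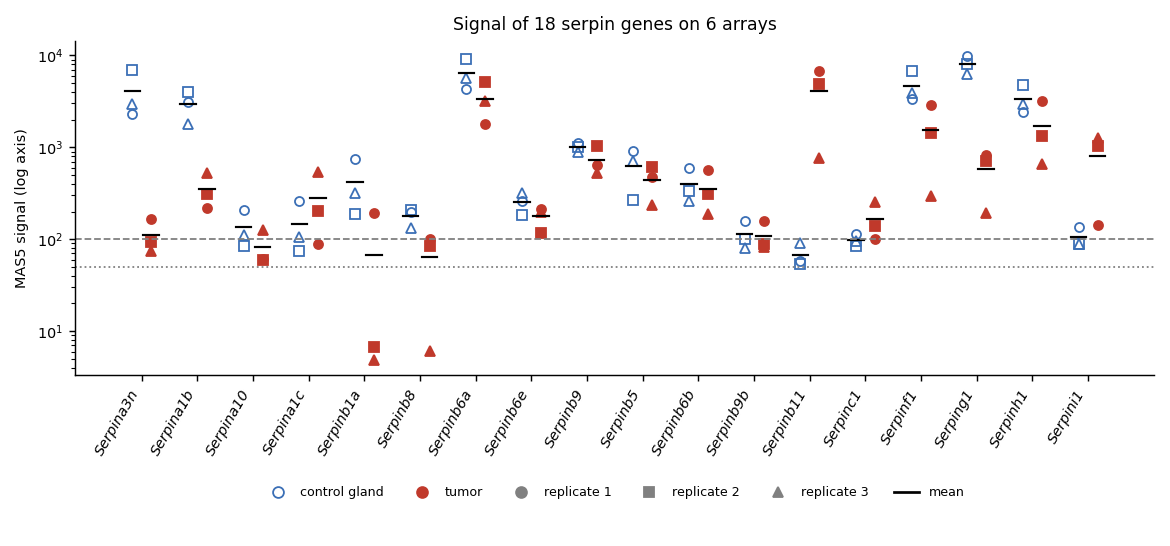
MAS5 signal, on a log axis, of the 18 serpin genes tested, with 1 point per array, open blue points for control glands, filled red points for tumors and black bars for the group means. The dotted line marks the floor of 50 and the dashed line the filter of 100. *Serpina3n* and *Serping1* lie lower in every tumor than in any control gland, and *Serpinb11* lies higher.

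The secreted serpins of clade A held the deepest fall of the family. *Serpina3n*, a secreted acute phase serpin related to human antichymotrypsin, had a signal of 2277, 7008 and 2942 in control replicates 1 to 3 and of 167.5, 92.9 and 74.3 in tumor replicates 1 to 3, the order used throughout. The groups did not overlap, and only tumor replicate 1 stayed above 100. Its log2 fold change was −5.10 with a standard error of 0.48 (limma, adjusted p = 0.000508), a 34.4-fold difference. *Serpina1b*, 1 of the mouse genes for antitrypsin, the main blood inhibitor of neutrophil elastase, had 3122, 4031 and 1808 in the control glands against 221, 311 and 521 in the tumors. Here too the groups did not overlap, but every tumor kept a signal above 100. The log2 fold change was −3.10 with a standard error of 0.41 (limma, adjusted p = 0.0018), an 8.60-fold difference. The other probe set of *Serpina1b* gave 2438, 3060 and 1343 in the control glands against 139.9, 249.8 and 470.7 in the tumors.

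Several of the antitrypsin genes are close copies. Both probe sets of *Serpina1b* carry a suffix for probes that may match several transcripts, so that the signal may belong to its copies. *Serpina1c*, read by a probe set without that suffix, had 259, 75.3 and 104.9 in the control glands against 88.6, 204.3 and 545.5 in the tumors, and the groups overlapped (log2 fold change 0.76, standard error 0.71, adjusted p = 0.445). The value for *Serpina1c* rested on tumor replicate 3 and was 0.08 without it. The last tested member of clade A, *Serpina10*, which inhibits coagulation factor X with protein Z, lay between 59.6 and 208.9 on all arrays (log2 fold change −0.70, adjusted p = 0.25). Of its 9 members that were not tested, 6 lay below 50 on every array.

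Promoter sequence is shown for the genes of clade A that fell, for *Serpina1c*, to show how alike the copies are upstream, and for *Serpinb11*, the largest rise. The sequences are RefSeq's for GRCm38.p6 and hold the 250 bases before the start of the gene, read 5′ to 3′ on the strand of the gene. Capitals mark a match to 1 of 3 motifs, chosen after the values were known, and a sequence without capitals holds none.
*Serpina1b* promoter, chr12:103738190-103738439, minus strand: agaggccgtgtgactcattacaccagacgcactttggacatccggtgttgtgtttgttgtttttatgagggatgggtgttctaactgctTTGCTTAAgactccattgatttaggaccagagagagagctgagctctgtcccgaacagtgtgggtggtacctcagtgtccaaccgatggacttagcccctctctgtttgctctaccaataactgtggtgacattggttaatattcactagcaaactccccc
*Serpina1c* promoter, chr12:103904951-103905200, minus strand: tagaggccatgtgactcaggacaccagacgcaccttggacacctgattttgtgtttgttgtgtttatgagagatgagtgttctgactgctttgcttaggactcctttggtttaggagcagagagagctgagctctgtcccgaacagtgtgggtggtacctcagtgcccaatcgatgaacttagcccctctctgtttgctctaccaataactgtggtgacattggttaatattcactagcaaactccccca
*Serpina3n* promoter, chr12:104406458-104406707, plus strand: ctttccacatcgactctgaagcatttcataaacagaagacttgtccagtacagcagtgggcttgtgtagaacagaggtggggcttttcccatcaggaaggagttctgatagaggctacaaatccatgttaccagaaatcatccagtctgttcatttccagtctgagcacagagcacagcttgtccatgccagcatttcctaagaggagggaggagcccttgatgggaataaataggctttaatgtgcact
*Serpinb11* promoter, chr1:107362064-107362313, plus strand: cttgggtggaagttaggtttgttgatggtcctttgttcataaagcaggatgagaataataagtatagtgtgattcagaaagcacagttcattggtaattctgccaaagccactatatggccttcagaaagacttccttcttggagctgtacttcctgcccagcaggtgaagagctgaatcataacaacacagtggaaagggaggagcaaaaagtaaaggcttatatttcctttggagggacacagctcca

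When aligned, 229 of the 250 bases of the *Serpina1c* window matched that of *Serpina1b*, or 91.6%. The windows of *Serpina1a*, *Serpina1d* and *Serpina1e*, further copies that no probe set used here names alone, matched at 227, 223 and 194 bases. For comparison, *Serpina3n* matched at 140 and *Serpinb11* at 114. The window of *Serpina1f*, a member below 50 on every array, matched at only 18, so not all *Serpina1* windows are alike. Both strands were searched for the STAT motif TTCNNNGAA, the C/EBP motif TTNNGCAA or TTGCNNAA and the TCF/LEF motif CTTTGA or TCAAAG. Of the 18 tested serpin genes 15 had such a window, in 16 windows. The C/EBP letters were found only in that of *Serpina1b*, at −161 to −154, and in 9.56% of all 32851 windows. The STAT letters were found only for *Serpinb6a*, at −77 to −69 (7.02% of all windows), and the TCF/LEF letters only for *Serpinb9b*, at −151 to −146 (13.8% of all windows). No match says only that these letters are not in this window.

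Of the 9 tested clade B serpins, which work inside cells, 1 rose, 2 fell and 6 did not pass. *Serpinb11*, a member known from epithelia, had 57.3, 54.1 and 90.4 in the control glands against 6696, 4872 and 761 in the tumors. No tumor overlapped with the control glands, but tumor replicate 3 was far below the other tumors. The log2 fold change was 5.48 with a standard error of 0.76 (limma, adjusted p = 0.00222), a 44.6-fold difference. All control signals were low, but none lay below the floor of 50, so that floor did not set the size of the change. Flooring at 16 left the value at 5.48, while flooring at 100, above every control signal, lowered it to 4.87. Leaving out tumor replicate 1 gave 4.88 and leaving out tumor replicate 3 gave 6.45, with the genes chosen on all 6 arrays. That choice still used the tumor left out. Under the other settings, these included, the adjusted p from limma ran from 0.000702 to 0.0259.

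*Serpinb1a*, an inhibitor of neutrophil elastase and cathepsin G, had 749, 188 and 321 in the control glands against 191, 6.70 and 4.90 in the tumors. Tumor replicate 1 was as high as control replicate 2, and the other tumors lay below 50. The log2 fold change was −2.19 with a standard error of 0.66 (limma, adjusted p = 0.0401). Since tumors lay below the floor, it became −3.29 when signals were floored at 16, and −1.52 when they were floored at 100, where it did not pass (adjusted p = 0.0535). *Serpinb8*, an inhibitor of the proprotein convertase furin, had 195.5, 208 and 132.8 in the control glands against 100.8, 85.3 and 6.10 in the tumors. The groups did not overlap, though all signals were low (log2 fold change −1.22, standard error 0.33, adjusted p = 0.0263). A second probe set of each gene was below the signal filter, with a log2 fold change of −1.60 for *Serpinb1a* and −0.95 for *Serpinb8*. Both calls were weak. That of *Serpinb1a* was the same under 12 of 19 other settings (adjusted p from 0.00688 to 0.146) and that of *Serpinb8* in 9 of 19 (0.0178 to 0.0903). *Serpinb1a* no longer passed without control replicate 1 or 3 or tumor replicate 2 or 3 (adjusted p = 0.101, 0.085, 0.128 and 0.118), and *Serpinb8* without control replicate 1 or 2 or tumor replicate 2 or 3 (0.0751, 0.0766, 0.0566 and 0.0609).

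*Serpinb6a*, a widely expressed inhibitor of cathepsin G, had 4283, 9127 and 5724 in the control glands against 1803, 5159 and 3204 in the tumors. The groups overlapped (log2 fold change −0.97, standard error 0.44, adjusted p = 0.128), and with the replicate number as a block it passed (adjusted p = 0.032, within a range of 0.032 to 0.315 under other settings). *Serpinb9*, the inhibitor of granzyme B with which cells shield themselves from lymphocyte proteases, had 1126, 1007 and 890 in the control glands against 634.5, 1022 and 530.1 in the tumors. Only tumor replicate 2 was within the range of the control glands (log2 fold change −0.52, standard error 0.29, adjusted p = 0.203). *Serpinb5*, the myoepithelial serpin maspin, had 902, 269 and 711 in the control glands against 480.5, 618 and 235 in the tumors, and the groups overlapped widely (log2 fold change −0.44, adjusted p = 0.56). In the same samples the summed signal of 8 basal and myoepithelial genes was 17250 to 19760 in control glands and 24030 to 31330 in tumors. *Acta2* carried much of these sums, with a mean of 10290 in control glands and 17670 in tumors. Of the 8 genes 3 rose, *Oxtr* fell (log2 fold change −2.76) and 4 did not pass, *Krt5* among them (0.30). *Serpinb6b* had 597, 335 and 260.4 in the control glands against 562, 308 and 187 in the tumors (log2 fold change −0.23, adjusted p = 0.735). Neither *Serpinb6e* (log2 fold change −0.53) nor *Serpinb9b* (−0.05) passed, and their signals lay between 79.9 and 314.5. The direction of *Serpinb6b* and *Serpinb9b* was reversed with equal array medians, and that of *Serpinb9b* also with quantile normalization.

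**Figure D2:**
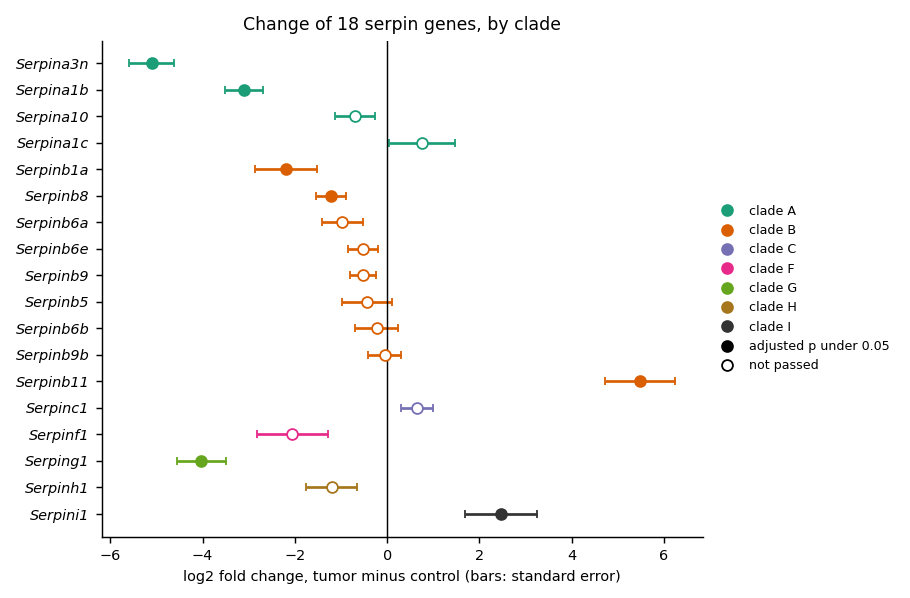
Log2 fold change in tumors over control glands for the 18 serpin genes tested, with bars for the standard error and colors for the clades. Filled points passed limma at an adjusted p of 0.05, and they run from −5.10 for *Serpina3n* to 5.48 for *Serpinb11*.

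Outside clades A and B, the complement inhibitor fell and neuroserpin rose. *Serping1* encodes the C1 inhibitor, which blocks the proteases C1r and C1s of complement and also plasma kallikrein. It had 9862, 7979 and 6229 in the control glands against 825, 705 and 195.2 in the tumors. No tumor came near the control glands, and tumor replicate 3 was the lowest. The log2 fold change was −4.03 with a standard error of 0.54 (limma, adjusted p = 0.00188), a 16.3-fold difference, and it was −3.37 without tumor replicate 3. Under all 20 other settings *Serping1* stayed lower and passed (adjusted p from 0.00103 to 0.0221), the methods' t-test included.

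*Serpini1*, or neuroserpin, an inhibitor of tissue plasminogen activator best known from neurons, had 135.6, 89.3 and 89.5 in the control glands against 142.8, 1024 and 1251 in the tumors. Tumor replicates 2 and 3 were far above the control glands and tumor replicate 1 only just. The log2 fold change was 2.47 with a standard error of 0.77 (limma, adjusted p = 0.0445), and without tumor replicate 1 it was 3.46 (adjusted p = 0.00128). Without any 1 of the other 5 arrays it did not pass (adjusted p from 0.0719 to 0.141), and under all settings tried it lay between 0.00128 and 0.159. A further probe set for *Serpini1* had 133.0, 73.6 and 97.4 in the control glands against 124.9, 368.3 and 330.0 in the tumors. Its groups overlapped, since tumor replicate 1 lay below control replicate 1, and its log2 fold change was smaller, at 1.33. The last probe set lay below 50 on every array.

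*Serpinf1*, or pigment epithelium-derived factor, a secreted protein that restrains vessel growth and inhibits no protease, had 3317, 6692 and 3931 in the control glands against 2882.5, 1444 and 293 in the tumors. All tumors were below all control glands, but by very different amounts, and the test was not passed (log2 fold change −2.05, standard error 0.78, adjusted p = 0.0789). Without tumor replicate 1 the value was −2.77 (adjusted p = 0.0271), without tumor replicate 3 it was −1.12, and under other settings the adjusted p lay between 0.0271 and 0.228. The other probe set of *Serpinf1* had 828, 1566 and 1035 in the control glands against 469.8, 195.3 and 30.4 in the tumors (log2 fold change −2.73). With the mean over probe sets *Serpinf1* passed (log2 fold change −2.39, limma, adjusted p = 0.047). *Serpinh1*, the collagen chaperone Hsp47 of the endoplasmic reticulum, had 2409, 4778 and 2991 in the control glands against 3154, 1341 and 666 in the tumors. Tumor replicate 1 lay within the range of the control glands and the other tumors below it (log2 fold change −1.20, standard error 0.55, adjusted p = 0.134). Without tumor replicate 1 it was −1.78 and passed (adjusted p = 0.0241, within a range up to 0.332). *Serpinc1*, or antithrombin, lay between 84.0 and 252.1 on all arrays and its groups overlapped (log2 fold change 0.65, adjusted p = 0.192).

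The tumors differed among themselves in several serpins. The log2 difference to the control mean ran from −0.62 to −3.92 across the tumors for *Serpinf1*, from −0.04 to −2.29 for *Serpinh1* and from −3.26 to −5.34 for *Serping1*, in each case nearest to 0 in tumor replicate 1 and farthest in tumor replicate 3. The summed signal of the 10 fibroblast and matrix genes had the same order, with 14410, 10880 and 2658 in tumor replicates 1, 2 and 3, and so had those of endothelium (3987, 2402 and 1685), macrophages (10400, 9463 and 5877) and skeletal muscle (35240, 1558 and 501.6). In all, 6 of 12 cell type lists had this order, also those of neutrophils and mast cells and of keratinized skin. *Kit*, which is on the luminal list too, carried much of the neutrophil and mast cell sum, with 2689, 2008 and 1132 in the tumors. On that list *S100a8* and *Cma1* also had this order, but *Cpa3* (81.8, 91.7 and 10.9) and *Tpsb2* (67.4, 6.2 and 11.8) did not. The adipocyte sum did not have this order, with 13030, 13920 and 3409. *Serpina3n* and *Serpinb8* also fell more from tumor replicate 1 to 3. *Serpina1b* had the reverse order (−3.68, −3.19 and −2.44), and *Serpinb6a* was lowest in tumor replicate 1 (−1.75, −0.23 and −0.92). A link of these serpins to the lists was not tested. *Serpinb11* was higher by 6.68, 6.22 and 3.54 in the 3 tumors, and *Serpini1* by 0.48, 3.32 and 3.61. The 2 genes that rose thus did not follow the same order over the tumors, and no test of an order over 3 tumors was made.

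**Figure D3:**
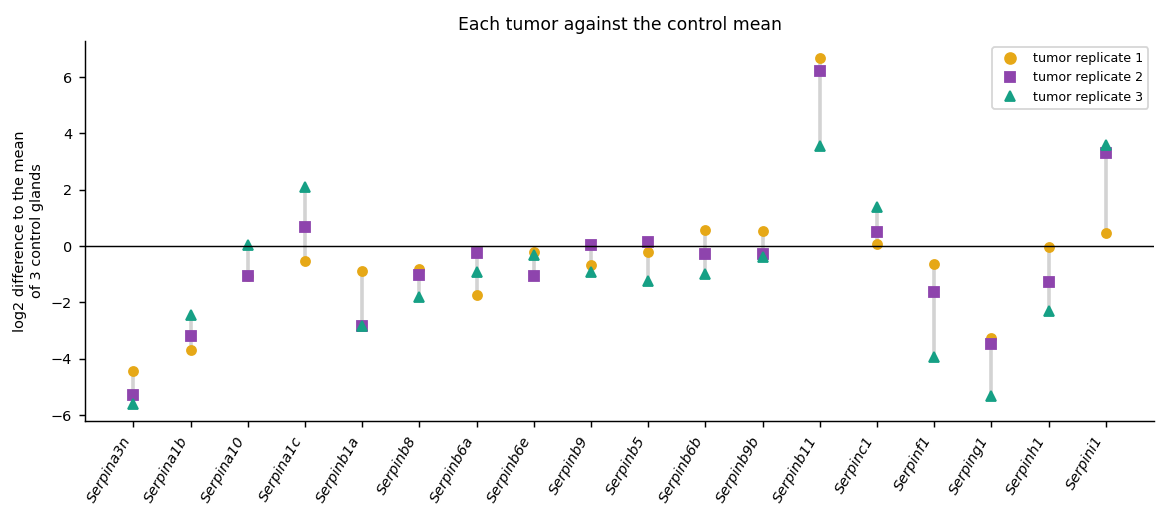
Log2 difference of each tumor to the mean of the 3 control glands for the 18 serpin genes tested, with signals below 50 set to 50. The gray line joins the tumors of a gene. Tumor replicate 3 is the lowest for *Serpinf1*, *Serping1* and *Serpinh1*, and tumor replicate 1 is the highest for *Serpinb11* and the lowest for *Serpini1*.

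Most serpin genes lie in clusters that arose by duplication, and calls differed between neighbors. In the order of RefSeq's GRCm38.p6 map, 8 members lie on chromosome 1, 12 on chromosome 12 and 11 on chromosome 13. The clade B genes of chromosome 1 run from *Serpinb5* over *Serpinb12*, *Serpinb3a*, *Serpinb11*, *Serpinb7* and *Serpinb2* to *Serpinb8*. *Serpinb11* rose there, whereas its neighbors *Serpinb3a* and *Serpinb7* reached at most 40.3 and 116.9 on any array, *Serpinb5* did not pass and *Serpinb8* fell. On chromosome 12 *Serpina1b* and *Serpina3n* fell and *Serpina1c*, which follows *Serpina1b* among the members, did not pass (log2 fold change 0.76). Of the 11 members on chromosome 13, 6 were tested and *Serpinb1a* alone passed.

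**Figure D4:**
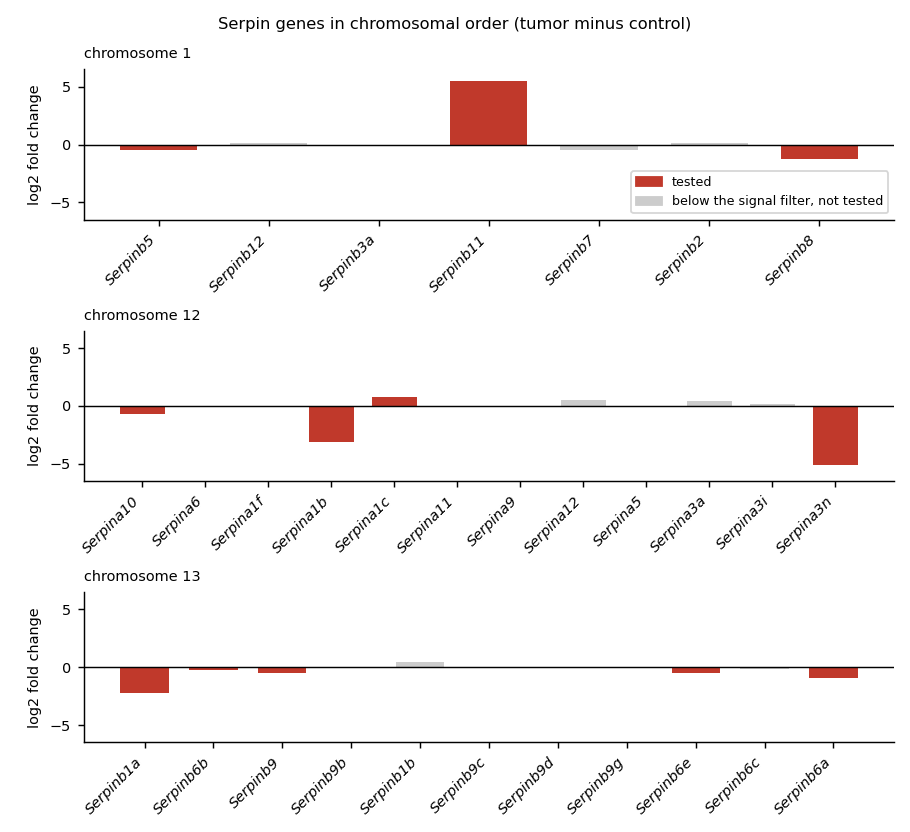
Log2 fold change in tumors over control glands for serpin genes in their order on chromosomes 1, 12 and 13, evenly spaced, with red bars for tested genes and gray bars for genes below the signal filter. A gene with no visible bar is near 0, and *Serpinb11* at 5.48 stands among neighbors that are near 0 or lower.

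Proteases, receptors and other partners of serpins were read from the same fit. Of 108 tested genes in 9 lists, 43 fell, 12 rose and 53 did not pass, with a median log2 fold change of −0.77. The share that fell, 39.8%, was above the 16.8% of all genes, and the share that rose, 11.1%, was below the 16.4% of all genes. The lists were chosen with results of these data known. Markers of fat and stroma fell in the same tumors, and their part in these counts was not tested. Of the 12 that rose, 2 passed the signal filter through the tumors alone, and of the 43 that fell, 4 through the control glands alone. Without control replicate 3, 28 of 103 tested partner genes fell, and the share of all genes in that setting is not given.

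The C1 proteases, targets of *Serping1*, fell. Of 7 tested genes of the C1 complex and the lectin pathway, 3 fell, none rose and 4 did not pass. *C1s1* and *C1ra*, the C1 proteases, had log2 fold changes of −4.60 and −3.27 (adjusted p = 0.000733 and 0.0015), and *Masp1*, a protease of the lectin pathway, had 0.21 (adjusted p = 0.619). Of 13 acute phase genes and their regulators, 4 fell, none rose and 9 did not pass. Those 9 went in both directions, with log2 fold changes from −1.34 for *Il6ra* to 1.86 for *Lcn2*. *Orm1*, a plasma glycoprotein, had a log2 fold change of −4.49, *Hp*, or haptoglobin, −3.32 and *Il6st*, the shared receptor chain of the interleukin 6 family, −1.71, while *Agt*, or angiotensinogen, itself a serpin by structure, had 0.10 (adjusted p = 0.921). Of 12 genes of plasminogen activation, thrombin and coagulation, 5 fell, none rose and 7 did not pass, with *Thbd*, the thrombin receptor thrombomodulin, at −3.78, *Procr*, the receptor of protein C, at −2.82 and *F3*, or tissue factor, at −1.71.

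Proteases of other families, not all of them targets of serpins, moved in both directions. Of 8 tested proteases of mast cells, neutrophils and lymphocytes, 4 fell, 1 rose and 3 did not pass. The mast cell proteases *Cpa3*, *Mcpt4* and *Cma1* had log2 fold changes of −3.34, −2.42 and −2.37. *Cpa3* and *Mcpt4* passed the filter through the control glands alone, and *Mcpt4* lay below the floor of 50 in all 3 tumors (6.70, 9.70 and 6.10), so that the floor set the size of its change. *Gzmb*, or granzyme B, the target of *Serpinb9* and *Serpina3n*, had 91.1, 13.3 and 53.2 in the control glands against 317, 270.4 and 230.5 in the tumors, with no overlap and no control gland at 100 (log2 fold change 2.12, standard error 0.29, adjusted p = 0.00209). In these samples *Serpinb9* did not pass and *Serpina3n* fell. Of 15 epithelial and trypsin-like serine proteases, 3 rose, 5 fell and 7 did not pass. The membrane proteases *St14*, or matriptase, and *Prss8*, or prostasin, had log2 fold changes of 2.60 and 2.48, the kallikrein *Klk6* 2.37, and the secreted *Htra3* and *Htra1* −5.33 and −2.86. *Klk6* passed the filter through the tumors alone, with at most 71.2 in the control glands, 1 of which lay below the floor. Of 11 cathepsins and caspases, 1 rose, 4 fell and 6 did not pass, with *Ctsh* at 1.92, *Ctsk* at −2.17, *Ctsl* at −1.54 and *Ctsd* at −0.04 (adjusted p = 0.915).

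Inhibitors of other families were also read. Of 13 tested, 4 rose, 5 fell and 4 did not pass. *Spint2*, a Kunitz-type inhibitor of matriptase and prostasin in epithelia, had 1981, 1367 and 2896 in the control glands against 10455, 10596 and 12570 in the tumors (log2 fold change 2.49, adjusted p = 0.00131). The cystatin gene *Cst6* had a log2 fold change of 2.78 and *Wfdc18*, a whey acidic protein relative, 2.42, while *Itih5* and *Wfdc2* had −4.41 and −3.70. Of 18 collagens and collagen-processing genes, 9 fell, 2 rose and 7 did not pass. The collagen chains *Col5a1*, *Col1a1* and *Col6a1* had −3.56, −3.44 and −3.42, and the foldases *Ppib* and *P4hb*, which work beside *Serpinh1* in the endoplasmic reticulum, had 1.39 and 1.27 (adjusted p = 0.0102 and 0.0144). Of 11 receptors that bind or clear serpins, 4 fell, 1 rose and 6 did not pass, with *Lrp1*, which takes up complexes of serpins with proteases, at −3.08, *Pnpla2*, a lipase also described as a receptor of *Serpinf1*, at −2.11 and *Sdc1*, or syndecan-1, at 2.11.

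**Figure D5:**
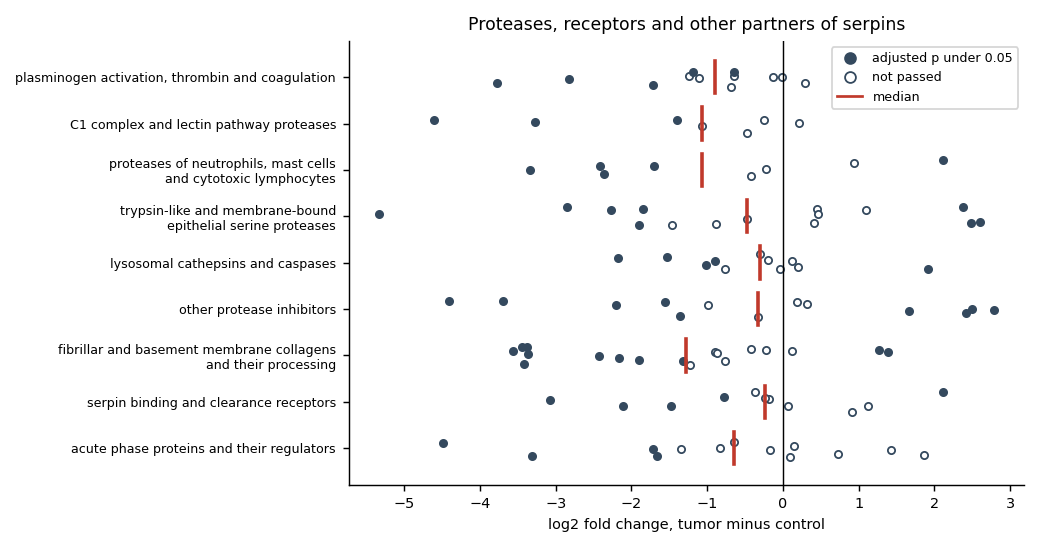
Log2 fold change in tumors over control glands for the tested members of 9 lists of proteases, inhibitors, receptors and other partners of serpins, with 1 point per gene. Filled points passed limma at an adjusted p of 0.05 and red lines mark list medians, which run from −1.28 for collagens to −0.24 for receptors.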

How the data were processed

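Total RNA of 3 acinar-type mammary tumors and 3 control mammary glands was put on Affymetrix mouse arrays, with 1 array for each sample. The deposited intensity values are the authors' MAS5 signals from the GCOS software, whose version is not stated, on a linear scale, with a target of 500 for every array. No detection calls were used. The files hold 45101 probe sets. After removal of 64 control probe sets, 34945 had 1 symbol, 932 several and 9160 were unnamed here. All 39 serpin symbols matched RefSeq by Entrez ID. Other serpin genes were not analysed here.

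Signals were floored at 50 and put on the log2 scale. The brightest probe set by mean log2 stood for a gene with several, and it was tested where at least 3 arrays reached 100. This left 12511 genes. The test was limma's (version 3.58.1, R 4.3.3; lmFit, then eBayes), 2-sided, with Benjamini-Hochberg adjustment over all genes and a threshold of 0.05 without a fold limit. An exact permutation test of 3 against 3 cannot give a p below 0.1. The number of arrays limits the precision. The members, the lists and the motifs were chosen with earlier results of these data known. Values on every array are given for the members that passed and for the 6 with the highest mean log2 signal that did not. For each list up to 3 passed genes in each direction and the gene nearest to 0 may be named. For the acute phase list, the genes at both ends of the range among those not passed are also named. Promoter windows were aligned with Biopython 1.88. Of 26 other settings, 20 were listed at the start and 6 were added after seeing the data. The 6 leave out 1 array with the genes chosen on all 6. Only the limma fit and the adjustment were tried on simulated log2 values, for genes already floored, filtered and chosen. The other steps were not tested in this way.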

Additional observations from a re-analysis of the deposited data

How the results depend on the processing

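Over the alternatives the direction of the 7 serpin genes that passed was kept. The count of serpin genes that rose, 2, was 1 with a floor of 16, with no filter, with a filter at 200 and with the replicate number as a block, and 0 by the methods' t-test. The count that fell, 5, was 3 with no filter and with a filter at 200, and 1 by the methods' t-test, which called *Serping1*. The filter at 200 left 12 serpin genes to test, and 39 were tested with no filter. Without 1 array, 0 to 1 of 16 or 17 tested serpin genes rose and 3 to 7 fell. With the genes chosen on all 6 arrays, as added after seeing the data, 1 to 2 of 18 rose and 3 to 7 fell. *Serpinb11* was not tested without any 1 tumor where the filter was applied anew, since it then reached 100 on fewer than 3 arrays. With the genes of all 6 arrays its adjusted p from limma ran from 0.000702 to 0.0135. That choice of genes still used the tumor left out, so these values are no independent check of *Serpinb11*. Of the 108 partner genes, 6 rose and 15 fell by the methods' t-test. Without 1 array, 10 to 14 rose and 28 to 47 fell, of 102 to 106 tested. With the genes of all 6 arrays, 11 to 14 rose and 31 to 47 fell, of 108. The share of all genes that passed under these settings is not given. A change in these counts thus cannot be told apart from a change in power over all genes.

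*Serpinb6b* had a log2 fold change of 0.0087 with equal array medians, and between −0.64 and 0.16 when 1 array was left out (above 0 without control replicate 1 or tumor replicate 3). *Serpinb9b* had 0.17 with quantile normalization, 0.19 with equal array medians, 0.08 and 0.12 when tumor replicate 2 or 3 was left out, and between −0.34 and 0.23 when 1 array was left out with the genes of all 6 arrays. Equal array medians moved the median of all genes from 0.07 to 0.31. With the replicate number as a block 1 serpin gene rose and 6 fell. *Serpini1* no longer passed (adjusted p = 0.0711) and *Serpinb6a* did. The labels do not say that the numbers pair the samples. The correlations of same-numbered samples, as deviations from their group means, were −0.22, 0.02 and 0.04. Those of differently numbered samples ran from −0.16 to 0.13. With 3 samples in a group these values cannot decide whether samples were paired. The cause of these changes was not tested.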

Other observations

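The annotation gives 3 probe sets with several serpin symbols, which stand for no gene here. That of 4 clade B symbols lay between 19.1 and 47.8 on all arrays. That of 2 clade A symbols had 44.5, 0.80 and 2.10 in the control glands against 0.80, 55.3 and 204.1 in the tumors, and that of 3 clade A symbols lay between 3.10 and 11.9.

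Among the lists of cell types, hepatocyte genes also varied between arrays. The summed signal of 8 such genes was 22400, 4192 and 11560 in the control glands against 410.7, 1472 and 7639 in the tumors. *Alb*, or albumin, had 863.4, 240.6 and 889.5 in the control glands against 121.8, 629 and 3403 in the tumors (log2 fold change 0.17, adjusted p = 0.922 from limma), and *Cyp2e1* fell by 5.40 on the log2 scale. *Cyp2e1* carried most of the control sums, and without it the other 7 genes summed to 1766, 394.9 and 1189 in the control glands against 338.9, 1233 and 7011 in the tumors. *Serpina1c* had its highest signal, 545.5, on the same array as *Alb*, tumor replicate 3.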
